A study of Mus musculus with 8 samples.

Results

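The insulin-like growth factor (IGF) axis was followed through 9 genes chosen by symbol: the ligand gene Igf1, the receptor genes Igf1r and Igf2r, and the genes of the IGF-binding proteins Igfbp2 to Igfbp7. Of these, 7 had a row among the 13387 genes of the count table, and 6 of the 7 passed the filter on low counts, which left 11722 genes to test. Igfbp6 had a row but too few counts for the test, and Igfbp2 and Igfbp5 had no row and were not analysed here. Bulk RNA-Seq had been performed on 4 libraries of C57BL/6 murine bone marrow megakaryocytes (MKs, the cells that release platelets) cultured alone and on 4 libraries of such MKs cultured with C57BL/6 bone marrow mesenchymal stem cells (MSCs). All cells were wild-type, both cultures lasted 18 hours in StemSpan medium with murine thrombopoietin, and no other treatment was given to either group. The MKs were enriched from flushed marrow with a CD41 antibody on magnetic beads rather than sorted, and the MSCs were sorted as CD45-Ter119-CD31-CD51+CD140a+ cells and, after coculture, left on the plate when the cells in suspension were taken off by hand. The series' design text gives the sequenced cells as MKs freed of platelets, whereas the paper gives them as platelets pooled from several wells. The labels do not give the age of the mice, and the paper used young adults throughout.

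IGF-1 is a secreted growth hormone-dependent factor that acts through the tyrosine kinase receptor encoded by Igf1r, which signals through insulin receptor substrates to the PI3K-AKT and MAPK pathways. Most extracellular IGF is held by binding proteins, which lengthen its life, block or deliver it to the receptor, and are themselves cut by proteases. The receptor encoded by Igf2r, also called the cation-independent mannose 6-phosphate receptor, clears IGF-2 and sorts newly made lysosomal enzymes. In marrow, stromal cells and macrophages are known sources of IGF-1.

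The libraries held 4939874 to 12523616 counts. Coculture replicate 3 stood apart from the others, with 10735 genes holding a count against 12406 to 13193 in the other 7 libraries, and the results on the members are given with and without it. The 15 MK and platelet markers summed to 1911 to 2251 CPM (counts per 1000000 of the TMM-scaled library) in MKs alone and to 1761 to 2361 CPM in cocultures, and 0 of the 15 were called in either direction by edgeR (0 higher and 1 lower at an unadjusted p under 0.05, and 0 higher and 1 lower by DESeq2). Without coculture replicate 3, Selp was called higher (log2 fold change 1.22), and Gp1ba (-1.16) and Gp6 (-1.20) were called lower. Transcripts of other marrow cells were present in both groups. The 10 neutrophil markers summed to 84234 to 85999 CPM in MKs alone and to 4291 to 10186 CPM in cocultures, and 10 of 10 were called lower. Markers of MSCs and macrophages moved the other way, as described after the members. In bulk libraries, fewer cells of a type and less RNA per cell cannot be told apart. The labels do not say whether the libraries of a group came from separate animals, while the paper counts mice as its replicates, and p-values measure the spread between these libraries.

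In the cocultures the ligand, the second receptor and each binding protein tested were higher than in MKs alone, while no difference was detected for the signalling receptor. Of the 6 members tested, 5 were called higher and 0 lower in cocultures, by edgeR's quasi-likelihood test. A gene was called when it changed 2-fold or more, its p after Benjamini-Hochberg adjustment was 0.05 or less, and one group averaged 1 CPM or more. Over all 11722 genes tested, 13.2% were called higher and 7.31% lower. At an unadjusted p under 0.05, 0 members were lower, and DESeq2 called 5 higher and 0 lower. The 5 called members and the libraries they rest on are shown in the plot of CPM by library.

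**Figure D1:**
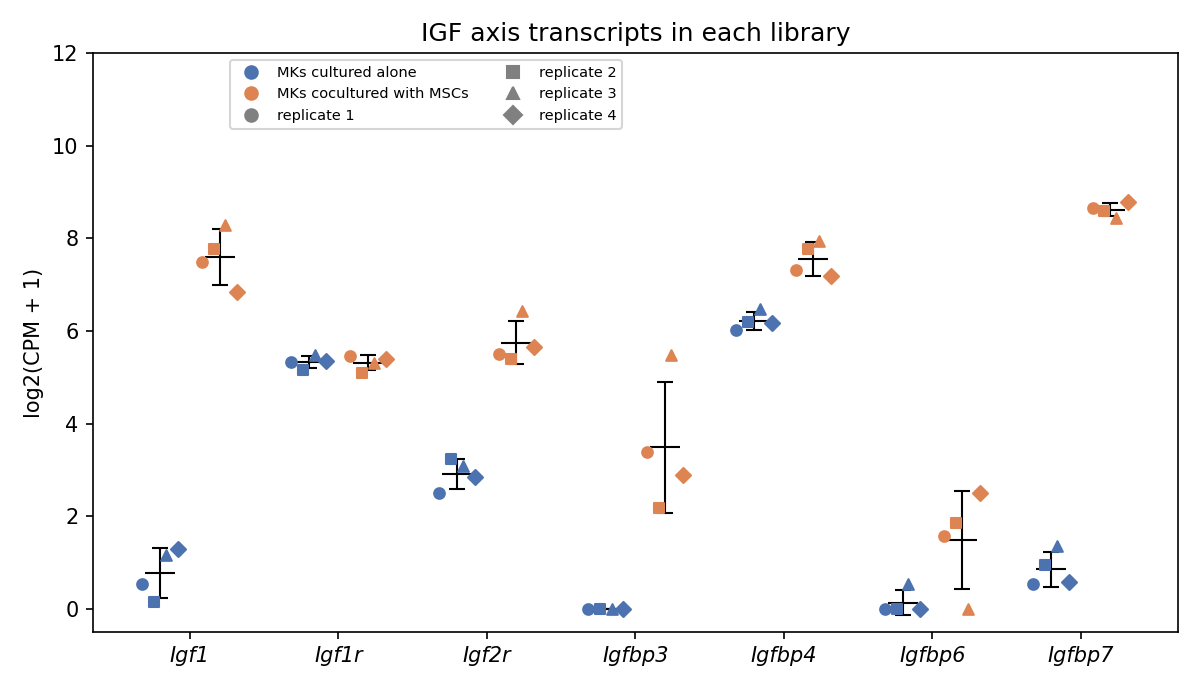
Levels of the 7 IGF axis genes with a row in the count table, as CPM on a log2(CPM + 1) axis, with 1 point per library, 4 libraries of MKs alone and 4 MK-MSC cocultures, and lines at the mean ± SD of each group. Igf1 and Igfbp7 lay at or below 1.55 CPM in each library of MKs alone and at or above 114 CPM in each coculture, while the points of Igf1r overlapped.

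The sequence around a start site is shown for the members whose levels the results turn on, with Igf1r for contrast. Other starts of these genes were not examined, and Igf1 has 8 protein-coding transcripts in the annotation. Each line gives the RefSeq (GRCm38.p6) sequence from 250 bases before to 50 bases after the start used for the gene, 5′ to 3′ on the gene's own strand. The start used was not always that of the gene coordinates given below. The whole window of Igf1 lies inside those coordinates, and the window of Igf1r ends before them. Capitals mark matches, on either strand, to 5 motifs chosen after the sequences had been seen. The first is the E-box CACGTG. Another is the TATA box, written TATAAA. The GC box was searched as GGGCGG. The AP-1 motif was searched as TGACTCA. For TEAD factors the letters were GGAATG. The windows are chr10:87860861-87861160 on the plus strand for Igf1, chr11:99040994-99041293 on the plus strand for Igfbp4, chr5:77407996-77408295 on the minus strand for Igfbp7, chr7:67952007-67952306 on the plus strand for Igf1r and chr17:12769657-12769956 on the minus strand for Igf2r.
Igf1: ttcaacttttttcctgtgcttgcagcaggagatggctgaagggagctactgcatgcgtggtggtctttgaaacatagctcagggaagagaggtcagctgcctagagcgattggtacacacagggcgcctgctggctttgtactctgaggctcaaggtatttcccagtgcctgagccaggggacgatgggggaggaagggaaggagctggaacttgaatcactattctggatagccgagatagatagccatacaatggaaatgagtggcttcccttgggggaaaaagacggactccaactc
Igfbp4: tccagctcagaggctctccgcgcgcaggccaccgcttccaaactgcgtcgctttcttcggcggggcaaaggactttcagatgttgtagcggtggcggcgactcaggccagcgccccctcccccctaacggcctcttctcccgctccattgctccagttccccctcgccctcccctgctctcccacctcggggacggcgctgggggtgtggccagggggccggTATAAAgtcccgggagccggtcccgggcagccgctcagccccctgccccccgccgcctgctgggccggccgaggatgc
Igfbp7: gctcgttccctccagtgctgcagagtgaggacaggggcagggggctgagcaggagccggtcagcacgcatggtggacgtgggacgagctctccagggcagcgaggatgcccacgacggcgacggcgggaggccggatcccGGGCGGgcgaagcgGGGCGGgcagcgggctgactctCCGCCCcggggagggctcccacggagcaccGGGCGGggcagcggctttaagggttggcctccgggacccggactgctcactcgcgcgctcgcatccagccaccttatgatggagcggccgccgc
Igf1r: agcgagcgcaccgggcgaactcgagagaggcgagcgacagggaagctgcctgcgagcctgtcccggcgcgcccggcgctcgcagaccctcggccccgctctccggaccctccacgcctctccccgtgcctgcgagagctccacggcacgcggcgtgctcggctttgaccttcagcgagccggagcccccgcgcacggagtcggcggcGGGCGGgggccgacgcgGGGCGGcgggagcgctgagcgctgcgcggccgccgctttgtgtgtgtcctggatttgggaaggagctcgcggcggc
Igf2r: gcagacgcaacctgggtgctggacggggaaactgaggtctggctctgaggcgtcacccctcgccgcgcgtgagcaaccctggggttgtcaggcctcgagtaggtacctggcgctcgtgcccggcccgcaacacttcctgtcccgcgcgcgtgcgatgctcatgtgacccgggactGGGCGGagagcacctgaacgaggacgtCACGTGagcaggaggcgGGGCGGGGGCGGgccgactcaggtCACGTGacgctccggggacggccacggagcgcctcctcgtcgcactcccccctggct

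Igf1 had the window poorest in G and C of the 5, with 52.3% and 6 CG dinucleotides, close to the medians of 52.7% and 7 over 27025 promoters, and none of the 5 motifs was found in it. The other 4 windows held 70.7% to 76.0% G and C and 27 to 48 CG dinucleotides. In the window of Igfbp4 the letters TATAAA began 28 bases before the start, and 14.2% of all promoters held them. GGGCGG occurred 4 times in the window of Igfbp7, 3 times in that of Igf2r and 2 times in that of Igf1r, and 35.9% of all promoters held it at least once. CACGTG occurred 2 times in the window of Igf2r, 48 and 7 bases before the start, and 7.24% of all promoters held it. TGACTCA and GGAATG, held by 5.17% and 14.6% of all promoters, were not found in the 5 windows. A match describes the letters and says nothing of binding.

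Igf1 (chromosome 10, 87858265 to 87937042, plus strand, GRCm38) encodes the ligand. Its level was 0.441, 0.103, 1.22 and 1.46 CPM in the 4 libraries of MKs alone and 178, 216, 313 and 114 CPM in the 4 cocultures. The groups did not overlap, as for 19.3% of all genes tested in this direction, and in MKs alone the gene rested on 1 to 11 counts per library, against 656 to 2987 in cocultures. The mean was 0.807 ± 0.641 CPM (SD, n = 4) in MKs alone and 205 ± 83.1 CPM (SD, n = 4) in cocultures. The log2 fold change was 7.97 (SE 0.71, 95% confidence interval 6.37 to 9.58), or 251-fold, with an adjusted p of 0.000107 by edgeR's quasi-likelihood test. Leaving out coculture replicate 3, the highest library, gave 7.70 with an adjusted p of 1.21e-10 by the same test. The antisense gene Igf1os overlaps Igf1 in the annotation, and whether strand was used in counting is not given in the sources used here. The gene of the second ligand, Igf2, held 1, 0, 0 and 0 counts in MKs alone and 16, 6, 0 and 6 counts in cocultures, too few for the test.

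Igfbp7 (chromosome 5, 77349240 to 77408041, minus strand) encodes a secreted protein of low affinity for IGFs that is laid down by stromal and vascular cells. It was at 0.441, 0.928, 1.55 and 0.488 CPM in MKs alone and at 402, 383, 348 and 437 CPM in cocultures. The groups did not overlap. On the log2(CPM + 1) scale the 4 cocultures lay closer together (SD 0.136) than for any other member that was called. This did not hold per transcript length, the scale used further below. The mean rose from 0.852 ± 0.516 CPM (SD, n = 4) to 392 ± 37.0 CPM (SD, n = 4), a log2 fold change of 8.73 (SE 0.41, interval 7.81 to 9.65) or 425-fold, with an adjusted p of 6.11e-06 by edgeR's quasi-likelihood test. Coculture replicate 3 was the lowest of the cocultures for Igfbp7, and the log2 fold change without it was 8.72. The gene overlaps Polr2b on the opposite strand, so reads of the shared bases are uncertain.

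Igfbp4 (chromosome 11, 99041244 to 99054392, plus strand) encodes a binding protein that blocks IGF action and is cut by the protease PAPP-A. It was the one binding protein well expressed without MSCs, at 63.6, 71.6, 87.7 and 70.6 CPM in MKs alone. In cocultures it was at 158, 216, 245 and 145 CPM, with each coculture above each library of MKs alone. The log2 fold change was 1.38 (SE 0.23, interval 0.86 to 1.90), from a mean of 73.4 ± 10.2 CPM to 191 ± 47.8 CPM (SD, n = 4 each), with an adjusted p of 0.00286 by edgeR's quasi-likelihood test. With coculture replicate 3 left out it was 1.21, with an adjusted p of 3.53e-05 by the same test.

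Igfbp3 (chromosome 11, 7206086 to 7213923, minus strand) encodes the main IGF carrier of serum. It had 0 counts in each of the 4 libraries of MKs alone, and 100, 27, 415 and 37 counts in cocultures. These cocultures were at 9.48, 3.52, 43.4 and 6.42 CPM, with replicate 3 at 6.71 times the mean of the other 3. Set against a floor of 3 counts per library in MKs alone, the coculture mean of 15.7 ± 18.6 CPM (SD, n = 4) was at least 35.1-fold higher. The adjusted p was 0.00961 by edgeR's quasi-likelihood test. Leaving out coculture replicate 3 lowered the bound to at least 14.4-fold higher, with an adjusted p of 3.7e-06 by the same test.

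Igfbp6 (chromosome 15, 102144362 to 102149511, plus strand) encodes a binding protein that prefers IGF-2. It held 0, 0, 4 and 0 counts in MKs alone and 21, 20, 0 and 27 counts in cocultures. The groups overlapped because coculture replicate 3, the deepest library, held none, which allows up to 0.314 CPM at 3 counts. The ratio of summed counts per effective library size was 14.9, with an exact 95% counting interval of 5.56 to 56.2 that covers counting error only. The filter on low counts left Igfbp6 out of the test with all libraries. Without coculture replicate 3 it passed the filter and was called higher, with a log2 fold change of 4.33 (SE 0.82). Its adjusted p was 0.000297 by edgeR's quasi-likelihood test. In that setting 6 of 7 members tested were called higher, against 2530 of all 12267 genes tested. With no filter and all libraries the log2 fold change of Igfbp6 was 4.03, with an adjusted p of 0.102, and it was not called. It also passed the filter with any 1 library of MKs alone left out. It was not called in those settings, with log2 fold changes of 3.62 to 7.14 and adjusted p of 0.103 to 0.205 by the same test.

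The makeup of the binding proteins differed between the groups. To compare levels between genes, counts were divided by the mean length of each gene's protein-coding transcripts and scaled to a fixed sum per library as TPM, and each IGFBP was expressed as a share of the summed TPM of the 4 IGFBP genes. Igfbp4 made up 99.0%, 98.2%, 96.8% and 99.0% of IGFBP mRNA in MKs alone and 20.9%, 27.7%, 31.1% and 18.2% in cocultures. Igfbp7 made up 1.002%, 1.852%, 2.495% and 0.997% in MKs alone and 77.7%, 71.4%, 64.4% and 80.2% in cocultures. So Igfbp4 led in each library of MKs alone and Igfbp7 in each coculture. Igfbp3 reached 1.64% ± 1.93 (SD, n = 4) of the coculture total, or 0.685% without coculture replicate 3, and Igfbp6 0.450% ± 0.368 (SD, n = 4). The summed TPM of the 4 genes was 58.6 ± 10.7 (SD, n = 4) in MKs alone and 646 ± 154 (SD, n = 4) in cocultures. These shares follow from the levels above and were not tested separately. They depend on the length used: over the union of all exons, Igfbp7 took 3.85% and 86.4% in place of means of 1.59% and 73.4%.

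**Figure D2:**
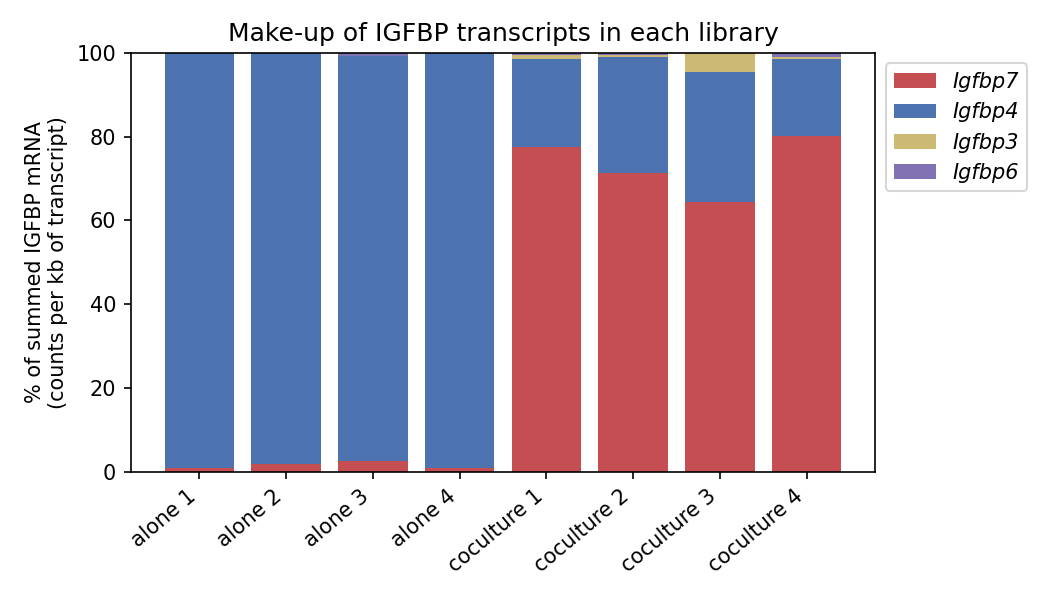
Share of each IGF-binding protein gene in the summed IGFBP mRNA per length (percent of TPM), as 1 stacked bar per library for 4 libraries of MKs alone and 4 cocultures. Igfbp4 filled 96.8% to 99.0% of the bars of MKs alone, and Igfbp7 filled 64.4% to 80.2% of the coculture bars.

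Igf1 mRNA also differed relative to the binding proteins. Igf1 TPM divided by summed IGFBP TPM was 0.00591, 0.00121, 0.0116 and 0.0176 in MKs alone and 0.203, 0.238, 0.341 and 0.123 in cocultures. The lowest coculture was thus above the highest library of MKs alone, while IGFBP mRNA still exceeded Igf1 mRNA in each of the 8 libraries. The size of the ratio depends on the length used. For Igf1 the mean length was 1964 bases and the union of all exons 9904, which would lower the ratio. It was not computed over that union.

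Igf1r (chromosome 7, 67952827 to 68233668, plus strand) encodes the receptor that carries the IGF-1 signal. It was at 39.3, 34.8, 43.4 and 39.9 CPM in MKs alone and at 43.0, 32.8, 38.8 and 40.9 CPM in cocultures. The groups overlapped, with means of 39.3 ± 3.50 and 38.9 ± 4.40 CPM (SD, n = 4 each). The log2 fold change was -0.02 (SE 0.24, interval -0.56 to 0.53), with an adjusted p of 0.971 by edgeR's quasi-likelihood test, so the interval leaves out a 2-fold change either way. The sign was not stable, since scaling to the MK and platelet markers gave 0.04 and leaving out 1 library gave -0.06 to 0.10.

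Igf2r (chromosome 17, 12682406 to 12769664, minus strand) was at 4.63, 8.35, 7.43 and 6.18 CPM in MKs alone and at 44.0, 41.3, 84.5 and 49.1 CPM in cocultures. The groups did not overlap, and coculture replicate 3 was the highest library. The mean rose from 6.65 ± 1.61 to 54.7 ± 20.1 CPM (SD, n = 4 each), a log2 fold change of 3.03 (SE 0.38, interval 2.18 to 3.89) or 8.18-fold, with an adjusted p of 0.000581 by edgeR's quasi-likelihood test. Without coculture replicate 3 it was 2.70 with an adjusted p of 5.53e-08 by the same test. The antisense gene Airn overlaps Igf2r in the annotation and had no row in the table.

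**Figure D3:**
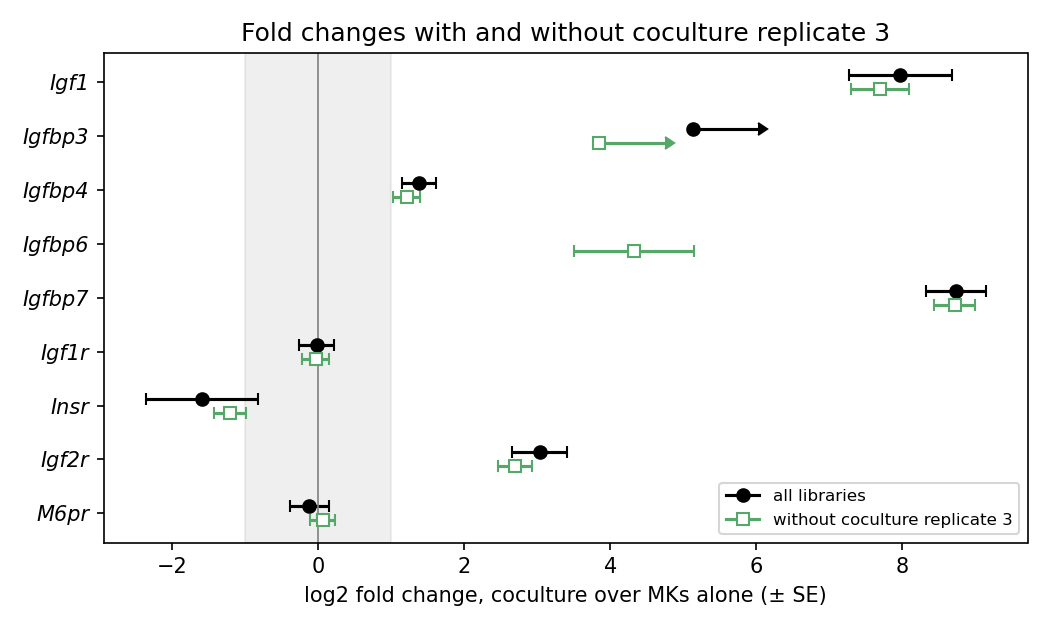
Log2 fold change of cocultures over MKs alone for the members and for the receptor genes Insr and M6pr, with SE from edgeR, for all 8 libraries (black) and without coculture replicate 3 (green). Grey marks changes under 2-fold, arrows mark Igfbp3 as a lower bound, and Igfbp6 is shown only without coculture replicate 3. Igf1r lay at -0.02, and Igfbp7, at 8.73, was the highest of the points without an arrow.

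Each receptor was set against its partner. Insr encodes the insulin receptor, which pairs with the IGF-1 receptor in hybrids, and it held 168, 282, 376 and 281 counts in MKs alone and 206, 107, 6 and 98 counts in cocultures. Its log2 fold change was -1.59 (SE 0.77, interval -3.34 to 0.16), with an adjusted p of 0.175 by edgeR's quasi-likelihood test, which missed the threshold. Without coculture replicate 3 it was -1.21, with an adjusted p of 0.00025, and Insr was called lower. The log2 ratio of Igf1r to Insr counts was 0.08, 0.26, 0.06 and -0.20 in MKs alone and 1.14, 1.23, 5.84 and 1.26 in cocultures. The coculture mean was 2.32 higher (exact permutation test, two-sided p = 0.0286, adjusted over 2 ratios 0.0286, the smallest p that 4 against 4 libraries allow), and 1.16 higher without coculture replicate 3.

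M6pr encodes the cation-dependent mannose 6-phosphate receptor, which shares the lysosomal sorting work of Igf2r. It averaged 287 CPM in MKs alone and 264 CPM in cocultures, a log2 fold change of -0.12 (interval -0.72 to 0.48) that was not called. The log2 ratio of Igf2r to M6pr counts was -5.96, -5.12, -5.29 and -5.42 in MKs alone and -2.80, -3.13, -0.79 and -2.31 in cocultures. The coculture mean was 3.19 higher (exact permutation test, two-sided p = 0.0286, adjusted 0.0286), and 2.70 higher without coculture replicate 3. Both ratios follow from the levels of their genes given above, so these tests add no separate result.

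**Figure D4:**
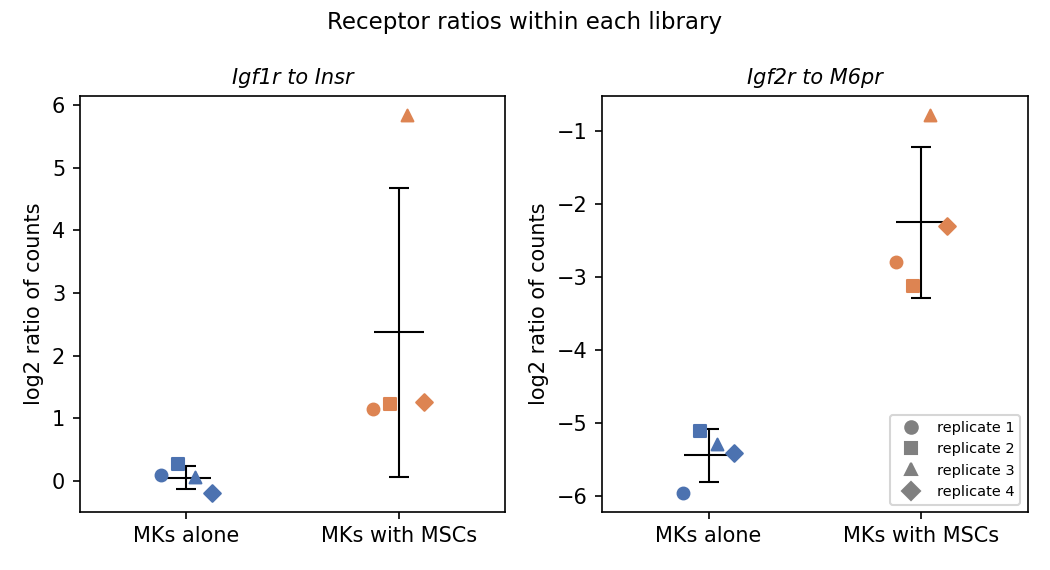
Log2 ratio of counts within each library for Igf1r to Insr and for Igf2r to M6pr, with 1 point per library and lines at the mean ± SD, for 4 libraries of MKs alone and 4 cocultures. The groups did not overlap for either ratio, and coculture replicate 3 was the highest point in both, at 5.84 and -0.79.

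Per length, the order of the members differed between the groups. The order rests on mean lengths of protein-coding transcripts and was not computed over the union of all exons. That union was 9904 bases for Igf1 and 4416 for Igfbp4, against mean lengths of 1964 and 1687. Over it, Igf1 would stand lower beside Igfbp4. In MKs alone Igfbp4 was the highest at 57.5 ± 9.85 TPM (SD, n = 4), followed by Igf1r at 4.54 ± 0.42 TPM, and each was above the next gene in 4 of 4 libraries. Igf2r at 0.995 ± 0.284 TPM and Igfbp7 at 0.984 ± 0.617 TPM did not differ beyond their spread, nor did Igfbp7 and Igf1 at 0.541 ± 0.435 TPM. In cocultures Igfbp7 led at 481 ± 145 TPM and was above the next gene in 4 of 4 libraries. With the mean lengths, Igfbp4 at 153 ± 34.3 TPM and Igf1 at 137 ± 34.3 TPM did not differ beyond their spread. Below them came Igfbp3 at 8.38 ± 7.22, Igf2r at 8.06 ± 0.70, Igf1r at 4.77 ± 1.26 and Igfbp6 at 3.29 ± 2.76 TPM. Igfbp3 and Igf2r did not differ beyond their spread, nor did Igf1r and Igfbp6, whereas Igf2r was above Igf1r in 4 of 4 cocultures. In MKs alone that order was the reverse, with Igf1r above Igf2r in 4 of 4 libraries.

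Coculture replicate 3 differed from the other cocultures by gene. Its fold over the mean of the other 3 depended on the scale. CPM uses its TMM factor of 0.7645, and TPM uses transcript lengths and no TMM factor. In CPM it was 1.84 for Igf1, 1.89 for Igf2r, 1.42 for Igfbp4, 0.997 for Igf1r and 0.855 for Igfbp7. In TPM it was 1.06 for Igf1, 1.08 for Igf2r, 0.812 for Igfbp4, 0.572 for Igf1r and 0.49 for Igfbp7, so that Igfbp4 was above the mean of the other cocultures on the first scale and below it on the second. Igfbp3 was above and Insr below that mean on both scales, with Igfbp3 at 6.71 in CPM and 3.87 in TPM and Insr at 0.0373 and 0.0214. Without it, the all-gene counts rose to 2530 called higher and 1890 lower of 12267 tested.

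Downstream of the receptor, 42 of 43 genes of IGF receptor signalling were tested, and 7 were called higher (16.7%, against 13.2% of all genes), 4 lower (9.52%, against 7.31%) and 31 not called, shares near those over all genes. The median log2 fold change was -0.06, against 0.03 over all genes tested. Irs1, an adaptor that the receptor phosphorylates, held 3, 0, 1 and 1 counts in MKs alone and 141, 96, 21 and 72 in cocultures, a log2 fold change of 5.56 (SE 1.11). Inppl1, which encodes the lipid phosphatase SHIP2, rose by 5.07 (SE 0.52) on the log2 scale. The other genes called higher were Grb10 at 2.40, Hras at 1.97, Pik3r2 at 1.79, Akt1 at 1.74 and Socs2 at 1.49. Foxo1, a transcription factor that AKT keeps out of the nucleus, fell by 1.69 (SE 0.52) on the log2 scale, with an adjusted p of 0.0457 by edgeR's quasi-likelihood test. Sos2 at -1.34 and Pik3r1 at -1.002 were also called lower. The second substrate Irs2 was at 29.7 ± 4.23 CPM in MKs alone and 24.8 ± 3.05 CPM in cocultures, with a log2 fold change of -0.26 (interval -0.90 to 0.38). When coculture replicate 3 was left out the list held 8 genes called higher and 7 lower. Over all 12267 genes then tested, 2530 were called higher and 1890 lower.

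Among proteases that cut IGFBPs and their inhibitors, 12 of the 18 genes listed were tested. Of these, 9 were called higher (75.0%, against 13.2% of all genes) and 1 lower (8.33%, against 7.31%), with a median log2 fold change of 2.79. Timp1, an inhibitor of metalloproteinases, held 0, 3, 0 and 0 counts in MKs alone and was at 352 ± 53.4 CPM (SD, n = 4) in cocultures. Its ratio of summed counts was 3436, with an exact counting interval of 1175 to 16663. Htra1, a secreted serine protease that cuts IGFBPs, rose by 6.88 (SE 0.75) on the log2 scale. Mmp2 at 4.71, Adam12 at 3.73, Mmp14 at 3.09, Adam9 at 2.89, Timp3 at 2.68, Timp2 at 2.55 and Ctsd at 1.49 were also called higher. Mmp9, a gelatinase abundant in neutrophils, fell by 2.92 (SE 0.41) on the log2 scale, from 1061 ± 208 to 140 ± 72.7 CPM (SD, n = 4 each). Pappa, whose product cuts the Igfbp4 protein, held 0, 0, 0 and 1 counts in MKs alone and 267, 159, 2 and 107 in cocultures. The low count in coculture replicate 3 kept Pappa from the test, and its ratio of summed counts was 469 with an exact counting interval of 83.8 to 18551. Stc1, which encodes an inhibitor of PAPP-A, had 0 counts in MKs alone and 35, 49, 2 and 29 in cocultures. It did not pass the filter on low counts with all libraries. Its coculture mean was at least 8.34-fold above the floor of 3 counts, which averaged 0.448 CPM in MKs alone. Coculture replicate 3, at 0.209 CPM, lay below that floor. Without coculture replicate 3, 15 genes were tested, and 13 were called higher and 1 lower. Over all 12267 genes then tested, 2530 were called higher and 1890 lower.

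In the mannose 6-phosphate sorting list, 2 of 19 genes tested were called higher (10.5%, against 13.2% of all genes) and 0 lower, with 1 lower at an unadjusted p under 0.05 and 0 by DESeq2. The median log2 fold change was 0.04. The 2 were Ap1s1, a subunit of the adaptor that packs the receptors into vesicles, at 2.45 (SE 0.42), and Vps29, a subunit of the retromer that returns them, at 1.09 (SE 0.30). Vps29 was not called without coculture replicate 3, at 0.78. The log2 fold change of Igf2r, 3.03, was above that of each of these 19 genes, a difference that was not tested.

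Of 13 other genes whose proteins carry an IGFBP-like domain, 7 were tested. Of these, 6 were called higher (85.7%, against 13.2% of all genes) and 0 lower (against 7.31%), with 0 lower at an unadjusted p under 0.05 and by DESeq2. Without coculture replicate 3, 8 of 9 tested were called higher, against 2530 of all 12267 genes then tested. The median log2 fold change was 6.88. Ccn1 and Ccn5, matricellular proteins, had 0 counts in MKs alone and were at least 453-fold and at least 353-fold higher in cocultures. Ccn2 held 2 counts in all in MKs alone and 27592 in cocultures, a ratio of 12089 with an exact counting interval of 3346 to 99829. Ccn4 rose by 5.70 (SE 0.61) and Crim1, a membrane protein, by 3.35 (SE 0.45) on the log2 scale, and Htra1, which carries the domain too, completes the 6. Igf2bp2, whose product binds IGF2 mRNA, rose from 1.36 ± 0.592 to 20.01 ± 9.80 CPM (SD, n = 4 each), a log2 fold change of 3.88 (SE 0.66). Igf2bp3 was at 1.88 (SE 0.88) and was not called.

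**Figure D5:**
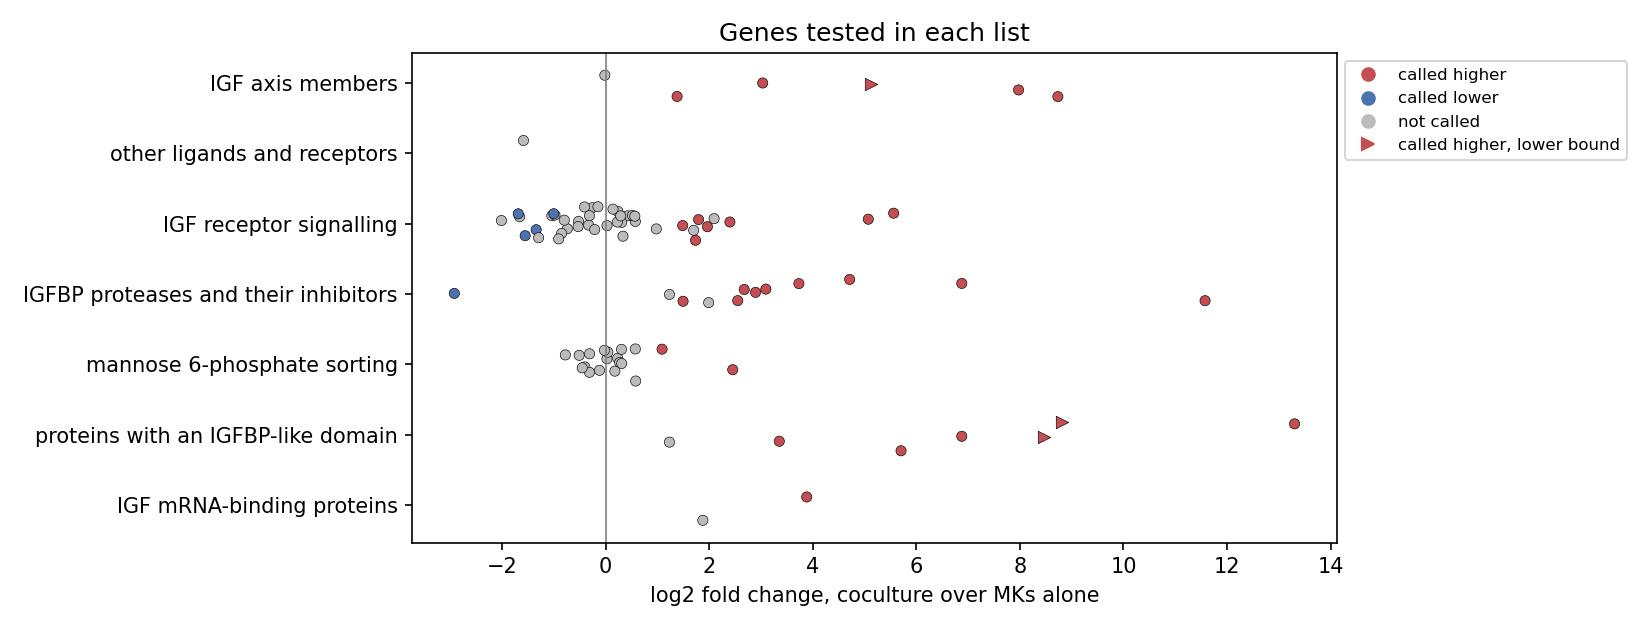
Log2 fold change of cocultures over MKs alone for each gene tested in the members and 6 pathway lists, with 1 point per gene coloured by its call and triangles for lower bounds of genes at 0 in MKs alone. Genes of receptor signalling and of mannose 6-phosphate sorting lay mostly near 0. Called higher were 9 of 12 proteases and inhibitors and 6 of 7 genes with an IGFBP-like domain, against 13.2% of all genes.

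Most markers of MSCs and of macrophages were higher in cocultures together with the members. The 10 MSC markers with a row summed to 14.7 to 22.9 CPM in MKs alone and to 1191 to 3824 CPM in cocultures, and 7 of 8 tested were called higher, or 9 of 9 without coculture replicate 3. The 10 macrophage markers with a row summed to 152 to 229 CPM and to 925 to 1418 CPM, and 8 of 9 tested were called higher, or 9 of 9 without coculture replicate 3. Without that library, 2530 of all 12267 genes tested were called higher. Cd163, the macrophage marker that was not tested, went the other way, with 8, 24, 12 and 7 counts in MKs alone and 3, 4, 0 and 3 in cocultures. None of these 20 genes was at 0 in each library of MKs alone. Coculture replicate 3 had the lowest MSC sum, 1191 CPM, and the highest macrophage sum, 1418 CPM. The place of its macrophage markers depended on the measure. Their mean log2(CPM + 1) was 5.45 in that library, against up to 5.70 in the cocultures. That mean was lowest there for the MSC markers too, at 4.45. The sums were not computed in TPM. In CPM, Igf1, Igf2r, Igfbp3 and Igfbp4 were highest in that library among the cocultures. In TPM this held for Igfbp3 alone, and Igfbp4 was lowest there. Igfbp7 was lowest there on both scales, and Igfbp6 had no count there. Igf1 equalled 6.14%, 5.65%, 26.2% and 4.28% of the MSC sum and 19.3%, 18.1%, 22.04% and 11.5% of the macrophage sum in the 4 cocultures. Igfbp4 equalled 5.43%, 5.66%, 20.6% and 5.44% of the MSC sum and 17.0%, 18.1%, 17.3% and 14.6% of the macrophage sum. Igfbp7 equalled 13.8%, 10.02%, 29.2% and 16.4% of the MSC sum and 43.4%, 32.1%, 24.5% and 44.2% of the macrophage sum. Igf1r, for which no difference between the groups was detected, equalled 1.48%, 0.86%, 3.26% and 1.54% of the MSC sum. Of the macrophage sum it equalled 4.65%, 2.75%, 2.74% and 4.14%. Igf2r equalled 1.515%, 1.08%, 7.10% and 1.845% of the MSC sum and 4.76%, 3.46%, 5.96% and 4.97% of the macrophage sum. Igfbp3 equalled 0.327%, 0.092%, 3.645% and 0.241% of the MSC sum and 1.025%, 0.294%, 3.06% and 0.65% of the macrophage sum. The part of either cell type in the members' levels was not tested.

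Patterns over the 8 libraries were compared by Pearson's r of log2(CPM + 1) with 8995 genes of at least 10 CPM on average, as a description, since the libraries share the split between the groups. Igf1 was most like Bag2, Fscn1 and Medag, with r of 0.998, 0.998 and 0.997, and 507 genes had an r over 0.95 with it. Igfbp7 was most like Lamc1, Fblim1 and Thbs2, with r of 0.999, 0.999 and 0.998. Igf2r was most like Fam20c, Cd68 and Pea15a, with r of 0.997, 0.997 and 0.996. Igfbp4 was most like Psrc1, P2ry6 and Fkbp11, each with r of 0.990, and Igfbp3 was most like Lilr4b, Ccnd2 and Rnf217, with r of 0.989, 0.988 and 0.987. The genes with an r over 0.95 numbered 521 for Igfbp7, 543 for Igf2r, 301 for Igfbp4 and 271 for Igfbp3. Igf1r, which does not follow the split, had no gene with an r over 0.95, and its nearest were BC003965 at 0.823, S100pbp at 0.788 and Acod1 at 0.780.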

How the data were processed

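Bulk RNA-Seq of 4 libraries of MKs cultured alone and 4 MK-MSC cocultures was analysed, with groups and replicates as the labels give them. The deposited values are raw gene counts, whole numbers that the authors had not normalized. In the methods, low input SMART-Seq HT libraries were sequenced paired-end, reads were filtered with fastp, and kallisto quantified them on the mm10 transcriptome, with DESeq2 for the comparison and a batch term that is not named. The versions, the summing over transcripts and the use of strand are not given in the sources used here. Each gene in the table held 11 counts or more in all.

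Genes that passed filterByExpr were tested by edgeR's robust quasi-likelihood method with TMM scaling (edgeR 4.0.16, R 4.3.3) on all 8 libraries with no covariate and Benjamini-Hochberg adjustment over all genes tested. The cutoffs for a call (2-fold, adjusted p 0.05, mean of 1 CPM in either group) follow the study's, with CPM in place of its TPM. SEs were taken from the fold change and its F statistic. DESeq2 1.42.0 was an alternative. TPM used mean lengths of protein-coding transcripts in GENCODE vM21 (GRCm38). Ratios of counts, with 0.5 added to each count, were compared with exact permutation tests (scipy 1.17.1). Intervals on summed counts and floors of 3 counts cover counting error only, and 3 counts corresponded to 0.284 to 0.662 CPM. The pipeline was tested on simulated data. These took their spread from the libraries of MKs alone, so the test does not cover the spread between the cocultures.

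The members and gene lists were chosen with earlier results of these data known. The text names all members, and from each pathway list the 2 largest rises, the 2 largest falls and the 2 most abundant genes, from each marker list the most abundant gene, and for each member the 3 genes most like it. Further genes of the lists were named after their values were seen, and some genes that the rule names are not reported here. The most abundant markers were Pf4, Sparc, Csf1r, S100a8, Ms4a1, Hbb-bs, Tek and Runx2. Of the other marker lists, 4 of 8 B cell markers were called lower, 1 of 3 endothelial markers was called lower, and 0 of 3 erythroid markers and 0 of 1 osteoblast marker were called by edgeR, with 1 lower in each list at an unadjusted p under 0.05 and 1 lower in each by DESeq2. Alternatives were other scalings, other filters, a replicate block, DESeq2 and leaving out each library in turn.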

Additional observations from a re-analysis of the deposited data

Results flagged for a closer look

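A library was looked for that lay far from the other 3 of its group, by the gap to its nearest neighbour over the range of the group. Of 24 sets of values, 4 held one. Chance gives about 1 in 20, or 1.2, for independent sets of continuous values. Igfbp6 in MKs alone was at 0 but for 1 library, so it held one by construction, both as level and as share. The 4 can therefore not be set against 1.2. The log2 ratio of Igf1r to Insr was 5.84 in coculture replicate 3 and 1.14 to 1.26 in the other cocultures, with 6 counts of Insr in that library. Igfbp3 made up 4.50% of IGFBP mRNA per length in coculture replicate 3 and 0.368% to 1.03% in the other cocultures. Igfbp6 was at 0.53 as log2(CPM + 1) in the third library of MKs alone, from 4 counts, and at 0 in the other 3. From the same 4 counts, Igfbp6 made up 0.742% of IGFBP mRNA in that library and 0 in the other 3 of the group.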

How the results depend on the processing

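Igf1, Igf2r, Igfbp4 and Igfbp7 were called higher in each setting in which they were tested, 8 of 8 with a library left out, with log2 fold changes of 7.58 to 8.37, 2.70 to 3.19, 1.21 to 1.54 and 8.54 to 9.17. Requiring at least 10 counts in every library, which removes genes absent from MKs alone, left 2 members called higher, 2 genes with an IGFBP-like domain, 0 of the IGF mRNA-binding proteins and 1 mannose 6-phosphate sorting gene. Igf1r, never called, changed sign to 0.0427 under scaling by MK and platelet markers, and lay between -0.0632 and 0.0982 with a library left out (0.0159 without replicate 3 of MKs alone, 0.0982 and 0.00381 without coculture replicates 2 and 4). That scaling moved the median of all genes to 0.109 and left 2 signalling genes called lower. With a library left out, signalling genes called lower numbered 2 to 7, mannose 6-phosphate sorting genes called higher 1 to 2, and Insr was called lower in 1 case, so that its list held 0 to 1. The ratios were 1.16 to 2.73 higher for Igf1r to Insr and 2.70 to 3.48 for Igf2r to M6pr, where the exact permutation p of 0.0571 is the smallest that 3 against 4 libraries allow. With the union of exons as length, Igfbp4 made up 95.7% and 11.6% and Igfbp7 3.85% and 86.4% of IGFBP mRNA. Over all genes, 1071 to 2530 were called higher and 539 to 1890 lower with a library left out. The share of higher among all calls was 64.3%, 59.6% by DESeq2 and 57.2% to 70.3% over the settings.

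The replicate numbers were treated as sharing only a number between the groups, since same-numbered libraries had correlations of their deviations of 0.369, 0.0198, 0.15 and 0.028, which do not all pass 0.1. Whether they mark the batch in the study's design is not given in the sources used here. With the replicate block, 4 members were called higher, since Igfbp3 had an adjusted p of 0.0746 by edgeR (fitted log2 fold change 9.82), and 1 mannose 6-phosphate sorting gene was called higher. Over all genes the block left 1096 called higher and 573 lower. Sign flips within replicate numbers gave the same differences of 2.32 and 3.19 for the ratios, with an exact permutation p of 0.125, the smallest that 4 pairs allow. Igf1 in MKs alone rested on 1 to 11 counts per library, which limits the precision of its fold. Igfbp6 and Pappa passed the low-count filter and were called higher once coculture replicate 3, with 0 and 2 counts of them, was left out, at 4.33 and 8.72.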
